A study of Mus musculus with 16 samples.

Results

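Chemokines are small secreted proteins that draw leukocytes into a tissue, and 10 of their genes were followed in cultured brown adipocytes: *Cxcl1*, *Cxcl2*, *Cxcl5*, *Cxcl10*, *Cxcl12*, *Ccl2*, *Ccl5*, *Ccl7*, *Ccl20* and *Cx3cl1*. They were taken by gene symbol from a table of 54347 genes, and all 10 were listed. Of these, 9 passed the filter on low counts and were tested among 13150 genes, and *Ccl20* did not pass. RNA was sequenced from wt1-SAM cells, an immortalized mouse brown preadipocyte line with a stable CRISPRa SAM system, by which guide RNAs bring transcriptional activators to a chosen promoter. Every culture was differentiated with IBMX (500 µM), indomethacine (125 µM), dexamethasone (1 µM), insulin (850 nM), T3 (1 nM) and rosiglitazone (0.5 µM), was reverse transfected with 250 ng of plasmid on day 4 and was harvested on day 7. Cells received the sgRNA vector with no guide (empty vector) or 2 vectors together with guides 2 and 7 against the long noncoding RNA gene *Gm15551*, the latter called sgRNA cells here. Each plasmid was combined with no stimulation (control) or with the β-adrenergic agonist isoproterenol at 1 µM for 24 h, which gave 4 groups of 4 libraries numbered as replicates 3, 4, 5 and 6. All groups share 1 cell line, the activator system and the same differentiation cocktail. The labels do not say whether replicates are separate cultures, so p-values measure the spread between these libraries, which may be technical.

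Chemokines are grouped by the spacing of the first conserved cysteines in the protein. CXC chemokines with a Glu-Leu-Arg motif, here *Cxcl1*, *Cxcl2* and *Cxcl5*, act through the receptor CXCR2 and attract neutrophils, whereas CXCL10 is induced by interferons and attracts T cells through CXCR3. The CC chemokines CCL2 and CCL7 attract monocytes through CCR2, and CCL5 attracts T cells and monocytes. CXCL12 retains stem and immune cells through CXCR4, and CCL20 acts on CCR6. CX3CL1 (fractalkine), made as a membrane-bound protein that can be shed, is the ligand of CX3CR1. In adipose tissue, chemokines are made by adipocytes, their precursors and immune cells, and their transcription is commonly driven by NF-κB or, for *Cxcl10*, by interferon-activated factors.

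The agents that separate the plasmid groups are the 2 guides below, 20 bases each, shown because every comparison of plasmids rests on them. Their places in the genome were not determined here.
Gm15551-2: cacttccagttatataagcg
Gm15551-7: agggttttttgctaaaacgg

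The promoters of *Cxcl1*, *Cxcl2* and *Cxcl10* are shown because the first gene had the clearest fall in sgRNA cells, the second is its neighbour of the same class and the third had the only positive estimate. Each is the stretch from 215 to 41 bases before the gene start in RefSeq on GRCm38.p6, 175 bases in length and written 5′ to 3′ on the gene's strand. *Cxcl1* is at chr5:90891030-90891204 on the plus strand, *Cxcl2* at chr5:90903684-90903858 on the plus strand and *Cxcl10* at chr5:92348930-92349104 on the minus strand. Capitals mark matches to the NF-κB letters GGNNNTTCC, the interferon-stimulated response element letters GAAANNGAA and the AP-1 letters TGANTCA.
Cxcl1: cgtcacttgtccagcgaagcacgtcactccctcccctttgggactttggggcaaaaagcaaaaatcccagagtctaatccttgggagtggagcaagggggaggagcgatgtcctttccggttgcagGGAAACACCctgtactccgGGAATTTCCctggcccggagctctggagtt
Cxcl2: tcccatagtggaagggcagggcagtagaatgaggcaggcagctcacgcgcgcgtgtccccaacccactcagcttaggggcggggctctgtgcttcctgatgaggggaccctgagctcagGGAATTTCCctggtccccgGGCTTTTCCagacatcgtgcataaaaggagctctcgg
Cxcl10: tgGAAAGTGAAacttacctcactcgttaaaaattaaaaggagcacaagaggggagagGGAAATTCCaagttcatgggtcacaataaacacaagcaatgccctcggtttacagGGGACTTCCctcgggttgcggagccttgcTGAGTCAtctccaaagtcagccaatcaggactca

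Motifs were searched on both strands in the 6 members whose promoters were available here, *Cxcl1*, *Cxcl2*, *Cxcl10*, *Cxcl12*, *Ccl20* and *Cx3cl1*. The windows searched reached beyond both ends of the printed stretches. The promoters of *Cxcl5*, *Ccl2*, *Ccl5* and *Ccl7* were not available here and were not searched. The NF-κB letters were found in 5 of the 6, at −89 to −81 and −70 to −62 in *Cxcl1*, at −96 to −88 and −77 to −69 in *Cxcl2* and at −158 to −150 and −103 to −95 in *Cxcl10*. They also stood in *Ccl20* and *Cx3cl1* but not in *Cxcl12*, and 15.7% of 32851 promoters held them in the same search window. Only *Cxcl10* held the interferon-stimulated response element letters, at −213 to −205, as did 7.13% of all promoters. The AP-1 letters likewise stood in *Cxcl10* alone, at −74 to −68, and in 6.75% of all. The cyclic AMP response element letters TGACGTCA were in none of the 6 and in 1.55% of all promoters. No matches overlapped in the printed stretches, and a match describes letters, not binding.

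Most members lie in chemokine clusters on GRCm38. *Cxcl5* (chr5:90759360-90761624), *Cxcl1* (chr5:90891241-90893115) and *Cxcl2* (chr5:90903871-90905938) share the plus strand of 1 region, with *Cxcl1* and *Cxcl2* 10.8 kb apart. *Cxcl10* (chr5:92346638-92348889, minus strand) stands between *Cxcl9* and *Cxcl11* on the same chromosome. On chromosome 11, *Ccl2* (chr11:82035571-82037453) and *Ccl7* (chr11:82045712-82047525) are 8.3 kb apart on the plus strand, and *Ccl5* (chr11:83525778-83530518) is on the minus strand. *Cxcl12* is at chr6:117168535-117181367, *Ccl20* at chr1:83116766-83119167 and *Cx3cl1* at chr8:94772009-94782427, each on the plus strand.

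Library totals ranged from 9053521 to 16546187 estimated counts, of which a single ribosomal RNA gene took 11.7% to 51.8%. That share was 47.3% and 51.8% in the control and stimulated empty vector libraries of replicate 5 and 41.6% in the stimulated empty vector library of replicate 3, and these 3 libraries stood apart from the rest. In each of the 8 pairs with the same replicate number and treatment it was higher in the empty vector library. *Gm15551* (chr3:126667329-126669044, minus strand) had 3 to 18 counts in empty vector and 19 to 56 in sgRNA control libraries, and 0 to 5 and 13 to 26 in stimulated ones. Its log2 fold change in sgRNA cells was 2.37 (SE 0.39, adjusted p = 0.0989) by edgeR and 2.41 (SE 0.28, adjusted p = 0.00055) once replicate number was a block. The adipocyte gene *Fabp4* had a mean of 14460 counts in 1000000 (CPM), *Ucp1*, the thermogenic gene of brown fat, ranged from 0 to 15.5 CPM, and 11 of 12 adipocyte markers were tested. Of 12 macrophage and monocyte markers, *Cd68* had 2937 counts over all 16 libraries and *Cd14* 724, and the other 10 had 1 to 53, with *Adgre1* at 1, *Ptprc* at 6 and *Csf1r* at 34.

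All values below are CPM on TMM-scaled library sizes unless stated. A count of 3 in a library, the limit that a count of 0 allows, equals 0.166 to 0.390 CPM for counting error only. A gene was called at a Benjamini-Hochberg adjusted p under 0.05 over 13150 genes with an absolute log2 fold change over 0.5. Because libraries with the same replicate number deviated together, values from the fit with the replicate block stand beside those of the fit without it wherever the call differs.

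*Cxcl1* and *Ccl2* were the most abundant members. Per kilobase of exon, *Cxcl1* reached 24.0 ± 11.5 CPM per kb (SD over all 16 libraries) and *Ccl2* 23.3 ± 13.8, which is less than their SDs apart. *Ccl7* followed at 10.8 ± 4.90 and *Cxcl10* at 8.83 ± 4.62 CPM per kb, an order that held in the empty vector groups (12.5 and 14.7 against 7.26 and 6.26 in control and stimulated cells) and was the opposite in the sgRNA groups (7.64 and 8.31 against 11.7 and 10.1). A step larger than both SDs separated *Cxcl10* from the low members, which were *Cxcl5* at 1.32 ± 1.51, *Ccl5* at 1.01 ± 0.520, *Cxcl2* at 0.833 ± 0.415, *Cx3cl1* at 0.523 ± 0.253 and *Cxcl12* at 0.204 ± 0.251 CPM per kb. Neighbours in this order from *Cxcl5* down, and likewise *Ccl2*, *Ccl7* and *Cxcl10*, differed by less than the larger of their SDs, except *Cx3cl1* and *Cxcl12*. *Ccl20* had 1 count in the empty vector control and 1 in the sgRNA control library of replicate 6 and 0 in the other 14 libraries, so no change of it was detectable at this depth. In bulk RNA, fewer cells that make a chemokine and less RNA per cell cannot be told apart.

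**Figure D1:**
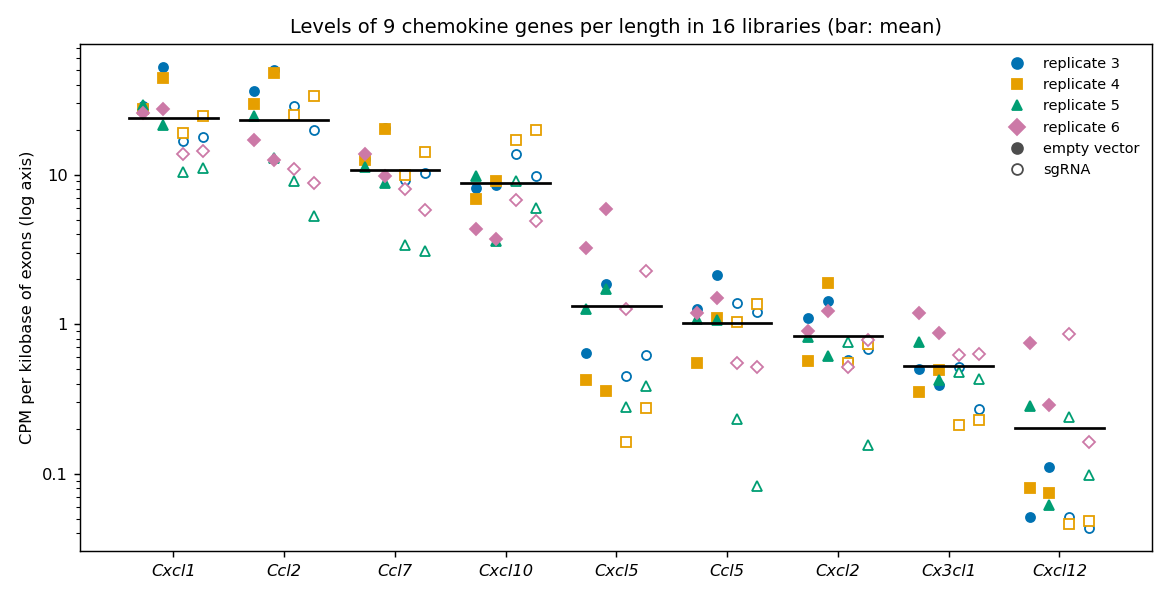
Level of the 9 tested chemokine genes in CPM per kilobase of exon on a log axis, with a point for each of the 16 libraries (filled for the empty vector, open for sgRNA cells, 4 columns a gene in the order empty vector control, empty vector stimulated, sgRNA control and sgRNA stimulated, a shape for each replicate) and a bar at the mean. *Cxcl1*, *Ccl2*, *Ccl7* and *Cxcl10* have means from 8.83 to 24.0 CPM per kb, and the other members shown have means of 1.32 or less.

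The *Gm15551* guides were compared with the empty vector over both treatments, the comparison meant to ask what activation of the gene does to the transcriptome. The empty vector has no guide, so the presence of a guide changes together with activation, and its part was not tested. Of the 9 tested members, 8 had lower and 1, *Cxcl10*, had higher estimates in sgRNA cells. The members were chosen with earlier results of these data known, so their counts are not those of a fresh set. Some also varied alike, with Pearson's r of log2 CPM at 0.91 between *Cxcl1* and *Ccl7*, so they are not independent observations. Member counts beside shares of all genes, here and below, are descriptive, and a difference from all genes was not tested. Without the block, 0 members were called, as were 0 of 13150 genes (0%), while 5 members had an unadjusted p under 0.05 against 3.32% of all genes. DESeq2 called *Cxcl1* and 0.0760% of genes. With the block, *Cxcl1*, *Cxcl5* and *Ccl7* fell, against 0.266% of genes called in either direction and 0.221% called lower, and 7 members had an unadjusted p under 0.05 against 11.5% of genes. The median log2 fold change of the members was −0.71 without and −0.75 with the block, against −0.0090 and −0.0055 over all genes tested. Once the ribosomal RNA share was added to the block, an alternative chosen after the data were seen, edgeR called 0 members against 0.106% of genes, with 6 members at an unadjusted p under 0.05 against 4.26% of genes.

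*Cxcl1* encodes a major neutrophil attractant and had the smallest p-value of the members. In empty vector control libraries of replicates 3, 4, 5 and 6 it stood at 53.6, 51.7, 54.9 and 48.1 CPM, and in the sgRNA control libraries at 31.5, 35.6, 19.5 and 25.7 CPM. These groups did not overlap, and the share of all genes that separated in this way was not counted. In stimulated cells the empty vector values were 98.3, 83.2, 40.5 and 51.2 CPM and the sgRNA values 33.2, 46.0, 20.7 and 27.1 CPM, which overlapped because the empty vector library of replicate 5 lay below the sgRNA library of replicate 4. Within replicates, *Cxcl1* was lower in the sgRNA library in 8 of 8 pairs, by 0.54 to 1.56 on the log2 scale. The same held for *Cxcl2*, *Cxcl5*, *Ccl2* and *Ccl7*, and among all genes tested 2.07% were lower and 1.01% higher in 8 of 8 pairs. The log2 fold change was −0.997 (SE 0.19, adjusted p = 0.170 by edgeR's quasi-likelihood test) without the block and −1.01 (SE 0.12, adjusted p = 0.000672) with it, or 0.498 times the empty vector level. With DESeq2 and no block the value was −0.99 (adjusted p = 0.000679). In the blocked fit the call was kept without any 1 of the 16 libraries (−1.07 to −0.89) and without any 1 replicate number (−1.10 to −0.92), with adjusted p at most 0.00375 and 0.0215. Adding the ribosomal RNA share to the block made it −0.80 (SE 0.17, adjusted p = 0.155).

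*Cxcl2*, the close relative and neighbour of *Cxcl1*, was lower in 8 of 8 pairs as well but was not called. It had 13 to 38 counts, or 1.18 to 2.29 CPM, in empty vector control libraries and 1.06 to 1.57 CPM in the sgRNA controls. Stimulated values were 2.96, 3.93, 1.27 and 2.52 CPM with the empty vector and 1.42, 1.53, 0.320 and 1.62 CPM in sgRNA cells. The groups overlapped in both treatments, and the lowest value rested on 4 counts. Its log2 fold change was −0.82 (SE 0.29, adjusted p = 1.00) without and −0.80 (SE 0.26, adjusted p = 0.249) with the block by edgeR. Of the 31-base words in its exons, 7.59% also occur in *Cxcl3*, which had 7 counts over all libraries.

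*Cxcl5*, the other CXCR2 ligand, had the largest estimated fall of the 9 members and differed widely between replicates. In empty vector control libraries of replicates 3, 4, 5 and 6 its values were 1.20, 0.788, 2.34 and 6.02 CPM, and with the guides they were 0.840, 0.304, 0.524 and 2.36 CPM. Stimulated libraries had 3.48, 0.664, 3.18 and 11.0 CPM with the empty vector and 1.16, 0.509, 0.721 and 4.24 CPM in sgRNA cells. The groups overlapped in both treatments because replicate 6 was the highest in each of the 4 groups, with a mean of 5.91 CPM, and replicate 4 the lowest, at 0.566 CPM. Within replicates the sgRNA library was lower in 8 of 8 pairs, by 0.30 to 1.93 on the log2 scale. The log2 fold change was −1.39 (SE 0.62, adjusted p = 1.00) without and −1.37 (SE 0.21, adjusted p = 0.00492) with the block by edgeR. Without the block the value ranged from −1.93 without sgRNA stimulated replicate 6 to −0.90 without empty vector stimulated replicate 6. The blocked call held without any 1 library but was lost without replicate 5 (−1.17, adjusted p = 0.0641) and without replicate 6 (−1.37, adjusted p = 0.175). Adding the ribosomal RNA share to the block made it −0.89 (SE 0.27, adjusted p = 0.682).

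**Figure D2:**
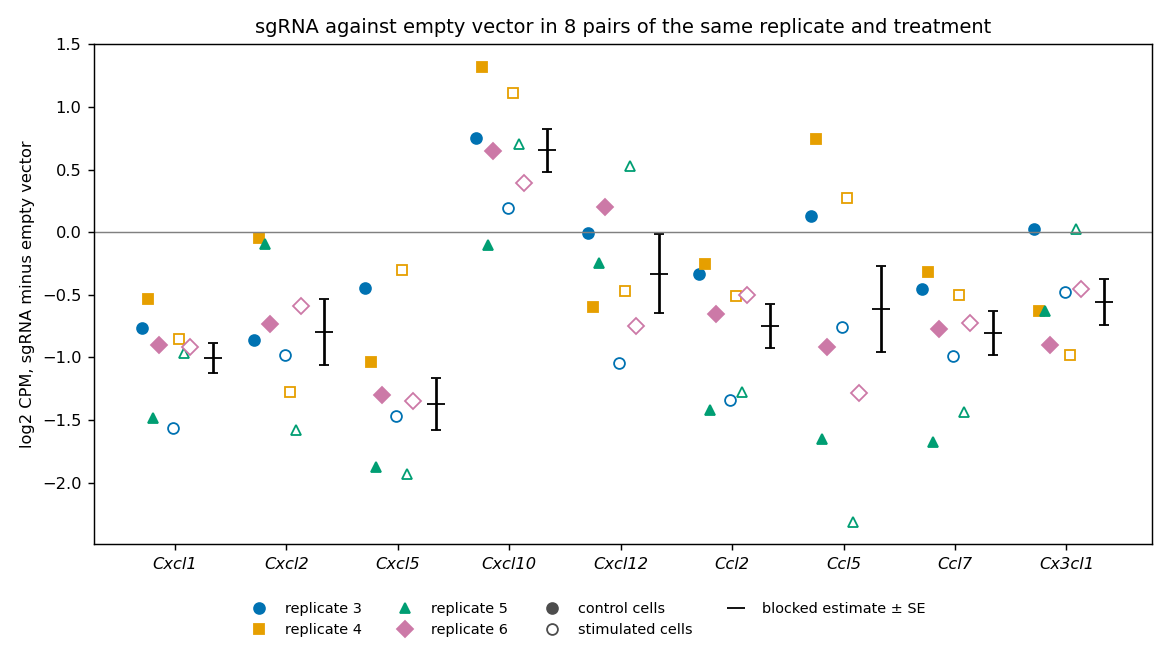
Difference in log2 CPM between the sgRNA and the empty vector library of each of 8 pairs with the same replicate number and treatment, for the 9 tested chemokines, with the blocked estimate and its SE in black. All 8 points of *Cxcl1*, *Cxcl2*, *Cxcl5*, *Ccl2* and *Ccl7* are below 0, and 7 of the 8 of *Cxcl10* are above 0.

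Both CCR2 ligands were lower in every pair. *Ccl7* stood at 10.2, 9.99, 8.96 and 11.0 CPM in the empty vector controls of replicates 3 to 6 and at 7.42, 7.98, 2.69 and 6.38 CPM in the sgRNA controls. These control groups did not overlap, and the share of all genes that separated in this way was not counted. Within control cells alone *Ccl7* was not called (adjusted p = 0.702 with the block by edgeR). In stimulated cells its values were 16.4, 16.1, 7.00 and 7.82 CPM with the empty vector and 8.17, 11.3, 2.48 and 4.66 CPM with the guides, and the groups overlapped. The log2 fold change of *Ccl7* was −0.77 (SE 0.29, adjusted p = 1.00) without and −0.80 (SE 0.17, adjusted p = 0.0499) with the block by edgeR, just past the threshold. The blocked call was kept in 3 of the 16 fits that left out 1 library, without empty vector control replicate 3 or 4 or sgRNA stimulated replicate 4. It was lost in the other 13, where adjusted p reached 0.133, and without any 1 replicate number (−0.97 to −0.62, adjusted p from 0.0777 to 0.252). The ribosomal RNA share added to the block moved *Ccl7* to −0.52 (SE 0.24, adjusted p = 1.00).

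*Ccl2* had 41.2, 33.9, 27.9 and 19.5 CPM in empty vector control libraries and 32.7, 28.4, 10.3 and 12.4 CPM in sgRNA controls. Stimulated libraries had 57.3, 54.7, 14.8 and 14.3 CPM with the empty vector and 22.6, 38.3, 6.01 and 10.0 CPM in sgRNA cells. The groups overlapped in both treatments, since replicates 3 and 4 (means of 38.4 and 38.8 CPM) were well above replicates 5 and 6 (14.8 and 14.1 CPM). Its log2 fold change was −0.71 (SE 0.40, adjusted p = 1.00) without and −0.75 (SE 0.18, adjusted p = 0.0805) with the block by edgeR, with the sgRNA library lower in 8 of 8 pairs by 0.25 to 1.42. It was not called, though it passed in the blocked fit without empty vector control replicate 4 and without sgRNA stimulated replicate 4.

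*Ccl5* was near the lower limit of measurement, with 1 to 23 counts per library and 0.0801 to 2.06 CPM. The sgRNA library was lower in 5 of 8 pairs and higher in replicate 3 in control cells and in replicate 4 in both treatments. Its log2 fold change was −0.58 (SE 0.42) without and −0.61 (SE 0.34, adjusted p = 0.517) with the block by edgeR, and −0.19 (SE 0.49) once the ribosomal RNA share was added to the block. The blocked value ranged from −1.13 without replicate 4 to −0.27 without replicate 5, and was called in neither fit.

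*Cxcl10*, the interferon-induced member, was the only one with a positive estimate. Its values were 18.4, 15.4, 21.9 and 9.76 CPM in empty vector control libraries and 31.0, 38.6, 20.4 and 15.4 CPM with the guides. In stimulated cells they were 19.3, 20.5, 8.14 and 8.41 CPM against 22.1, 44.5, 13.4 and 11.1 CPM. The groups overlapped, and 7 of 8 pairs were higher in the sgRNA library, the exception being replicate 5 in control cells. The log2 fold change was 0.69 (SE 0.31, adjusted p = 1.00) without and 0.65 (SE 0.17, adjusted p = 0.129) with the block by edgeR, so it was not called in either fit. Without empty vector control replicate 5, a library with a high ribosomal RNA share, the blocked value was called, as it was without replicate 5 altogether (0.79, adjusted p = 0.0463), whereas without replicate 4 it was 0.42 (adjusted p = 0.418). *Cxcl10* overlaps an exon of *Art3* on the opposite strand, and whether counting used strand is not given in the sources used here.

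*Cxcl12* and *Cx3cl1*, a homeostatic and a membrane-bound chemokine, were each lower in the sgRNA library in 6 of 8 pairs and were not called. *Cxcl12* had a log2 fold change of −0.26 (SE 0.66) without and −0.33 (SE 0.32, adjusted p = 0.743) with the block, and without the block its sign turned when empty vector control replicate 6 (0.31) or empty vector stimulated replicate 6 (0.11) was left out. *Cx3cl1* ranged from 0.836 to 4.67 CPM over the 16 libraries, and its values were −0.55 (SE 0.31) and −0.56 (SE 0.18, adjusted p = 0.244) in the same edgeR tests.

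The sgRNA effect was also fitted within control and within stimulated cells. In control cells the blocked estimate for *Cxcl1* was −0.93 (SE 0.17, adjusted p = 0.0698 by edgeR), which was called only without empty vector stimulated replicate 3 or empty vector control replicate 4, and 0 members were called against 0.0304% of genes, with 6 members at an unadjusted p under 0.05 against 5.73% of genes (1 member against 1.48% without the block). In stimulated cells *Cxcl1* was called with the block alone, at −1.08 (SE 0.17, adjusted p = 0.0188), against 0.122% of genes called. Without the block it stood at −1.10 (SE 0.27, adjusted p = 1.00), and with the ribosomal RNA share added to the block at −0.83 (SE 0.23, adjusted p = 0.829). That call was lost without 1 of 4 libraries, which were sgRNA stimulated replicates 3, 5 and 6 and empty vector stimulated replicate 4, and without replicate 3, 4 or 6. The blocked values of *Cxcl5* were −1.34 (SE 0.31, adjusted p = 0.235) and −1.41 (SE 0.28, adjusted p = 0.0909) in control and stimulated cells, the latter called only without empty vector control replicate 3 (adjusted p = 0.0495). The interaction itself was −0.15 (SE 0.24) for *Cxcl1* and −0.07 (SE 0.45) for *Cxcl5* with the block. For the interaction, edgeR called 0 of the 9 members and 0% of genes, and DESeq2 called 0 members. With or without the block 0 members had an unadjusted p under 0.05, so no single member had a detectable difference between the treatments. All 9 blocked interaction estimates were negative, with a median of −0.15 against 0.0059 over all genes. Without the block 8 were negative and 1 was positive, and the shared direction was not tested.

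**Figure D3:**
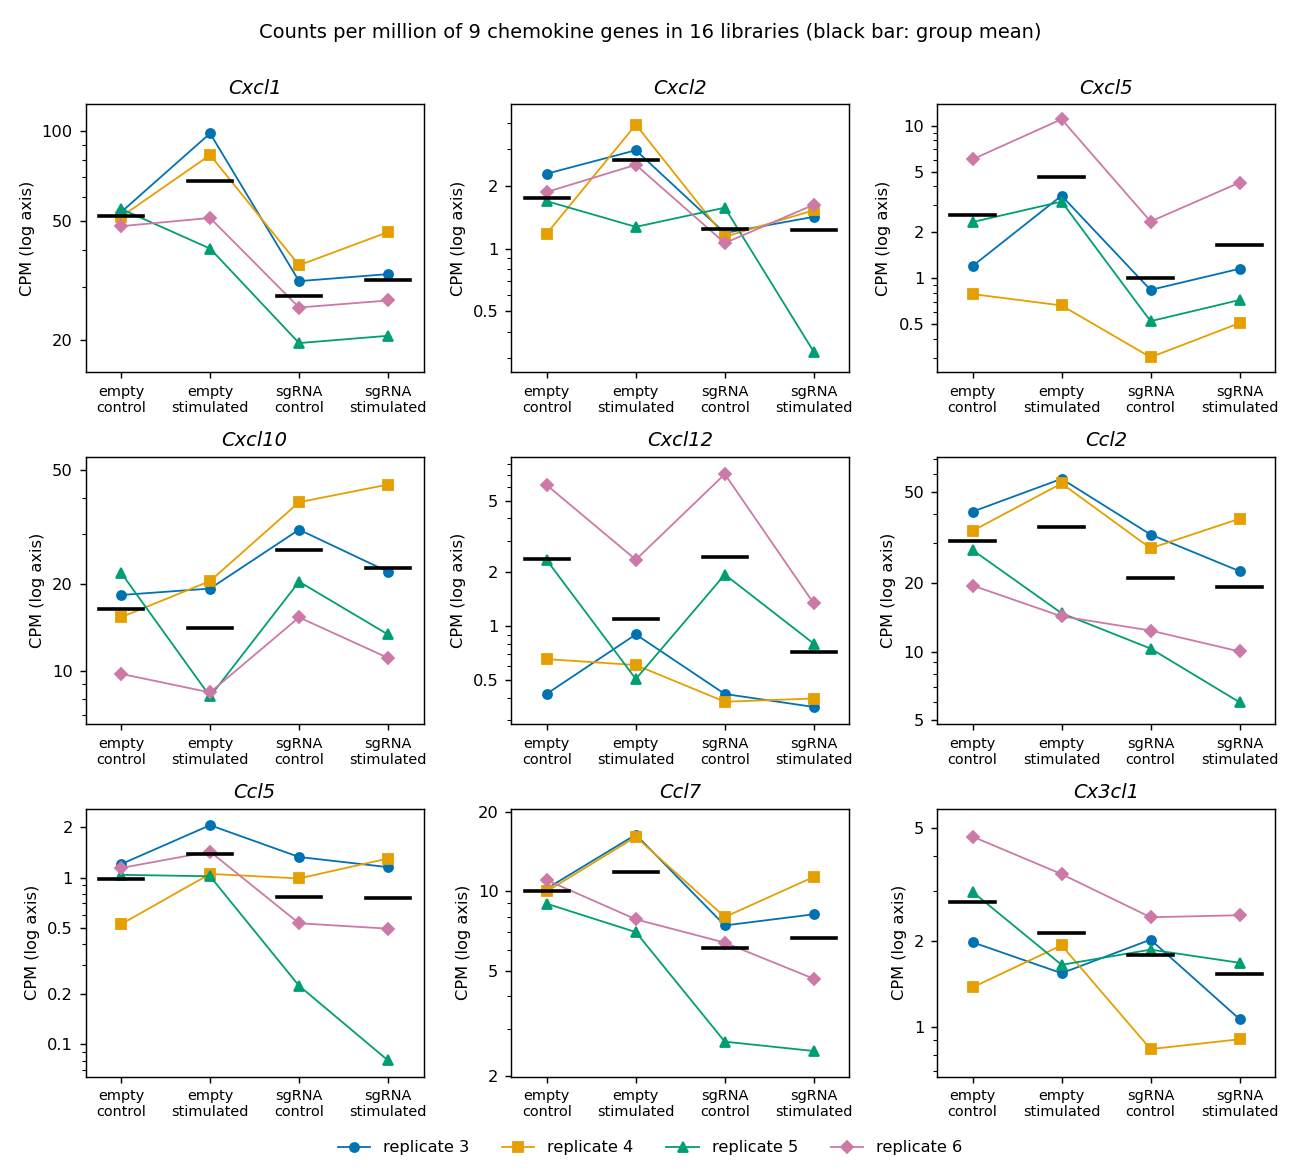
CPM of the 9 tested chemokines in each of the 16 libraries on log axes, by group, with a shape and a joining line for each replicate number and a black bar at the group mean. *Cxcl1* has sgRNA control values of 19.5 to 35.6 CPM, all below the empty vector controls at 48.1 to 54.9, whereas for *Cxcl5* replicate 6 is highest in each of the 4 groups.

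Isoproterenol stimulation was compared with control over both plasmids, the comparison that asks how β-adrenergic signals change the cells. Without the block 0 members were called by edgeR against 2.65% of genes, 0 had an unadjusted p under 0.05 against 17.7% of genes, and DESeq2 called 0 against 3.54% of genes. With the block *Cxcl5* rose and *Cxcl12* fell, against 5.70% of genes called, and these were the 2 members with an unadjusted p under 0.05, against 33.5% of genes. As a share of the members, 2 of 9 at an unadjusted p under 0.05 is below that background. The median log2 fold change was 0.18 without and 0.13 with the block, against 0.0047 and 0.0028 over all genes.

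For *Cxcl5* the stimulated library was higher in 7 of 8 pairs, with replicate 4 of the empty vector as the exception at 0.664 against 0.788 CPM. Its log2 fold change was 0.79 (SE 0.61, adjusted p = 0.567) without and 0.71 (SE 0.21, adjusted p = 0.0252) with the block by edgeR. Leaving out 1 library moved the value without the block to between 0.25 and 1.22, the first without sgRNA stimulated replicate 6 and the second without empty vector control replicate 6. The blocked call was lost in 7 of 16 fits without 1 library (empty vector control and stimulated replicate 3, sgRNA control replicate 5 and each library of replicate 6), without replicate 3 (0.63, adjusted p = 0.0964), without replicate 6 (0.60, adjusted p = 0.226) and when the ribosomal RNA share was added (0.47, adjusted p = 0.138).

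*Cxcl12* had 0.421, 0.657, 2.34 and 6.13 CPM in the empty vector controls of replicates 3 to 6 and 0.902, 0.609, 0.509 and 2.36 CPM after stimulation. In sgRNA cells it had 0.420, 0.380, 1.95 and 7.07 CPM in control and 0.355, 0.396, 0.801 and 1.34 CPM in stimulated libraries. Replicates 5 and 6 fell in both plasmids, by 1.13 to 2.27 on the log2 scale, whereas replicates 3 and 4 had 4 to 11 counts in every library. The log2 fold change was −1.40 (SE 0.67, adjusted p = 0.288) without and −1.08 (SE 0.32, adjusted p = 0.0235) with the block by edgeR. Without the block the value ranged from −1.76 without empty vector stimulated replicate 6 to −0.69 without sgRNA control replicate 6. The blocked call was lost without any 1 of the 4 libraries of replicate 6, without replicate 6 (−0.53, adjusted p = 0.400) and without replicate 5 (−0.96, adjusted p = 0.105). It remained when the ribosomal RNA share was added (−1.05, adjusted p = 0.0459, against 5.55% of genes called).

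The other members had no call under isoproterenol. *Cxcl1* was higher in 7 of 8 pairs, and its estimates were 0.29 (SE 0.19, adjusted p = 0.484) without and 0.25 (SE 0.12, adjusted p = 0.163) with the block by edgeR. Leaving out 1 library moved *Cxcl1* to between 0.16 and 0.38 without the block and to between 0.16 and 0.35 with it. *Cxcl2* was higher in 6 of 8 pairs (0.27, SE 0.27 with the block). *Cxcl10*, *Ccl2* and *Cx3cl1* were each lower in 5 of 8 pairs, with blocked values of −0.26 (SE 0.17), −0.08 (SE 0.18) and −0.24 (SE 0.18). For *Cx3cl1*, fits without 1 library gave −0.38 to −0.14 with the block and −0.44 to −0.083 without it. Leaving out a replicate number moved *Cxcl10* to −0.50 without replicate 4, which was called (adjusted p = 0.0357 by edgeR), and to −0.040 without replicate 5 (adjusted p = 0.889), and leaving out empty vector control replicate 5 alone gave −0.11. *Ccl5* and *Ccl7* were higher in 4 pairs and lower in 4, with blocked values of 0.27 (SE 0.34) and 0.13 (SE 0.17). For *Ccl2* the estimate without the block had the opposite sign (0.04, SE 0.40). Blocked signs also turned without replicate 4 in *Cxcl2* (−0.041) and *Ccl7* (−0.083), without replicate 5 in *Ccl2* (0.11) and without sgRNA stimulated replicate 4 in *Ccl5* (−0.012).

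**Figure D4:**
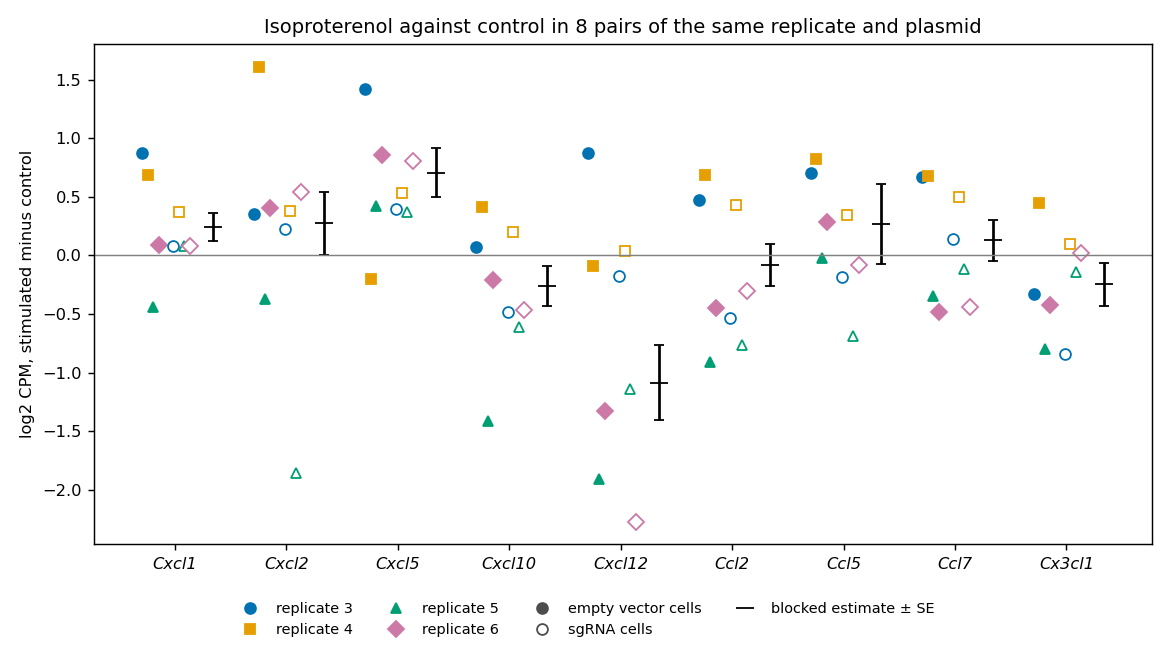
Difference in log2 CPM between the stimulated and the control library of each of 8 pairs with the same replicate number and plasmid, with the blocked estimate and its SE in black. *Cxcl5* lies above 0 in 7 of 8 pairs, and the 4 lowest points of *Cxcl12* are those of replicates 5 and 6.

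Replicate number accounted for more of the spread of each tested member than the treatment did. It has more levels than the treatment, so it takes a larger share even where neither has an effect. Its share of the variance of log2 CPM over the 16 libraries was 0.702 for *Cxcl12*, 0.665 for *Ccl2*, 0.663 for *Cxcl5*, 0.617 for *Cx3cl1* and 0.533 for *Cxcl10*, against a median of 0.468 over all genes tested. *Cxcl1* and *Cxcl2* varied least with replicate number, with shares of 0.229 and 0.181. For *Cxcl1* the plasmid took 0.620 of the variance and for *Ccl7* 0.354, against a median of 0.0238 over all genes. The treatment took at most 0.0956, in *Cxcl12*, against a median of 0.0679.

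**Figure D5:**
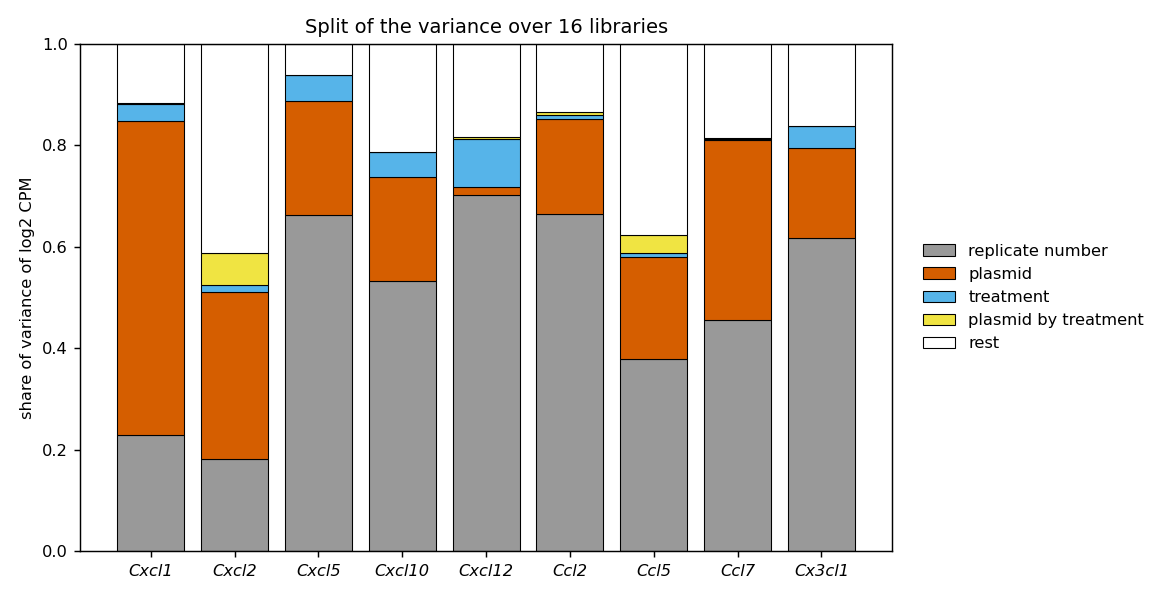
Share of the variance of log2 CPM over 16 libraries that went with replicate number, plasmid, treatment, plasmid by treatment and the rest, for each of the 9 tested chemokines. The plasmid share is largest in *Cxcl1* (0.620), and the replicate share is largest in *Cxcl12* (0.702).

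Across the 16 libraries, which share depth, plasmid and replicate effects, some members varied alike. Pearson's r of log2 CPM was 0.91 between *Cxcl1* and *Ccl7*, 0.89 between *Ccl2* and *Ccl7* and 0.82 between *Cxcl1* and *Ccl2*. For *Cx3cl1* r was 0.78 with *Cxcl12* and 0.74 with *Cxcl5*, which rank 113 and 224 among all genes by likeness to it, whereas *Cxcl1* and *Cxcl5* had an r of 0.24. *Cxcl10* ran opposite to *Cxcl5* (−0.76) and *Cx3cl1* (−0.65). Among all genes tested, the 3 most like *Cxcl1* were *Ccl7* (0.91), *Fas* (0.90) and *Fth1* (0.88), and those most like *Ccl7* were *Cops7b* (0.92), *Cxcl1* (0.91) and *Fas* (0.90). Those most like *Cxcl10* were *H2-K2* (0.91), *Exo5* (0.91) and *2610005L07Rik* (0.90), and for *Cx3cl1* they were *Csf1* (0.88), *Apobec3* (0.87) and *Apbb1ip* (0.87). For *Cxcl5* they were *Slc39a6* (0.94), *Eya3* (0.92) and *Ptbp1* (0.92), and for *Ccl2* *Med28*, *Tmem256* and *Cops7b*, each at 0.92. *Cxcl12* was most like *Nusap1*, *Brms1l* and *Serpina3k*, each at 0.90, *Cxcl2* most like *Tlcd3a* (0.86), and *Ccl5* most like *Ccl7* (0.85).

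The rest of the chemokine system was sparsely expressed. Of 29 other chemokine genes in the table, 2 were tested and 0 were called in either averaged comparison, with or without the block. These were *Ccl25* at 19.3 CPM and *Ccl9*, which attracts myeloid cells, at 6.60 CPM, with blocked sgRNA values of 0.02 (SE 0.08) and −0.44 (SE 0.16, adjusted p = 0.314 by edgeR's quasi-likelihood test). *Cxcl9* and *Cxcl11*, the neighbours of *Cxcl10*, had 36 and 71 counts in all and were not tested. CXCL9 shares the receptor of CXCL10, whereas *Cxcl11* is listed as a polymorphic pseudogene in the annotation used here. Of 23 receptors, *Cxcr2*, the receptor of the CXCL1 class, was the only one tested, at 1.42 CPM, and was not called, whereas *Cxcr4* had 1 count and *Ccr2* 9 counts over all libraries.

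Of 27 genes for signals and factors upstream of chemokines, 24 were tested. In the averaged sgRNA comparison 0 were called without and 1, *Il6*, with the block, at −1.01 in both fits (SE 0.30, adjusted p = 1.00 without and SE 0.20, adjusted p = 0.0371 with the block by edgeR's quasi-likelihood test). Under isoproterenol *Il6*, an inflammatory cytokine, rose by 1.92 (SE 0.30, adjusted p = 0.00145) without the block. *Il1rn*, the interleukin-1 receptor antagonist, was called lower under isoproterenol with the block (−0.79, SE 0.11) but not without it (−0.78, SE 0.85, adjusted p = 0.709). *Tnfrsf1b*, a TNF receptor, was likewise called higher with the block (0.55, SE 0.09) and not without it (0.58, SE 0.19, adjusted p = 0.105). *Nfkbia*, a target and inhibitor of NF-κB, was at 75.5 CPM with a blocked sgRNA value of −0.22 (SE 0.06, adjusted p = 0.127). *Tnf* had 6 counts in all and *Il1b* none.

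Of 8 genes for proteins that cut or present chemokines, 5 were tested and none was called for the guides. Among them, *Adam10* at 61.4 CPM and *Adam17* at 59.5 CPM, proteases that can shed CX3CL1, were called in neither comparison. *Sdc4*, a syndecan that carries chemokine-binding sugar chains, rose by 0.54 with isoproterenol (SE 0.11, adjusted p = 0.011 by edgeR's quasi-likelihood test).

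Among the tested markers of preadipocytes, immune cells and endothelium, only *Ly6a* was called for the guides, and only with the block. Of 10 preadipocyte and fibroblast markers 5 were tested, and their summed level was lower in the sgRNA library in 8 of 8 pairs, at 26.4 to 111 CPM in empty vector and 18.04 to 70.2 CPM in sgRNA controls and at 33.7 to 127 and 25.2 to 97.9 CPM in stimulated cells. Most of that sum was *Ly6a*, with a mean of 30.2 CPM against 12.6 CPM for *Col1a1* and 4.08 CPM or less for the others. Within that list *Ly6a* was called with the block, at −0.74 (SE 0.11, adjusted p = 0.00491 by edgeR's quasi-likelihood test), and not without it (−0.74, SE 0.51, adjusted p = 1.00), whereas *Pdgfra* stood at 0.05 (SE 0.16). Under isoproterenol *Ly6a* was called higher with the block (1.09, SE 0.11, adjusted p = 4.9e-06) and not without it (0.99, SE 0.51, adjusted p = 0.340). Of 12 macrophage and monocyte markers 2 were tested, *Cd68* at 14.1 and *Cd14* at 3.57 CPM. Their summed list was lower in the sgRNA library in 8 of 8 pairs too, at 11.2 to 17.7 and 9.13 to 16.5 CPM in controls and 19.7 to 28.3 and 17.9 to 27.0 CPM in stimulated cells, and neither gene was called for the guides. Under isoproterenol *Cd68* rose by 0.91 (SE 0.17) and *Cd14* by 0.82 (SE 0.15). Of 8 neutrophil and lymphocyte markers, *S100a8* was tested, at 1.46 CPM, and *Ly6g* and *S100a9*, which mark neutrophils, had no count in any library. *S100a8* was called higher under isoproterenol with the block (1.13, SE 0.33, adjusted p = 0.0246) and not without it (1.10, SE 0.37, adjusted p = 0.116), and was not called for the guides. Endothelial markers gave 1 tested gene of 6, which was not called. All 11 tested adipocyte markers had positive estimates for the guides, with a median of 0.15 without and 0.17 with the block. Of them *Cidea*, a lipid droplet protein of brown fat, was called with the block (1.05, SE 0.21, adjusted p = 0.0348) and not without it (1.26, SE 0.44, adjusted p = 1.00). Under isoproterenol *Ucp1* rose by 4.03 and *Ppargc1a*, a coactivator of thermogenic genes, by 0.71 without the block, and *Adipoq*, which encodes adiponectin, fell by 1.06. With the block *Cidea* (1.20, adjusted p = 0.000746) and *Plin1* (−0.57, adjusted p = 0.000217) were called as well, which without it stood at 1.19 (adjusted p = 0.155) and −0.57 (adjusted p = 0.114). The part of these cell markers in the chemokine values was not tested.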

How the data were processed

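Reads were trimmed by the authors in cutadapt, and transcripts of GRCm38 were quantified in Salmon against GENCODE M22, alone or joined with RNAcentral, which the sources used here leave unclear. They deposited estimated counts per gene, as whole numbers that are not normalized. Tool versions and strand use are not given in the sources used here. Of 54347 gene IDs, 54094 matched GENCODE M21, which gave positions and the exon lengths behind CPM per kb. No column of sample values was left unmapped. Groups came from the sample titles. In R 4.3.3, edgeR 4.0.16 was used with TMM scaling, filterByExpr (minimum count 10, minimum total 15), group means, glmQLFit and glmQLFTest on 16 libraries, two-sided, with Benjamini-Hochberg adjustment over 13150 genes. Log2 CPM used a prior count of 2. Correlations of deviations between libraries of the same replicate number were 0.22 to 0.61 in all 24 pairs, against a median of −0.21 for other numbers with a maximum of 0.52, so the replicate block was read as a pairing, found from the data since the labels give only numbers. The biological coefficient of variation was 18.0% without and 9.96% with it. DESeq2 1.42.0, no low-count filter and leave-one-out fits were alternatives. Where the ribosomal RNA share was added to the block, it entered as its log odds. The 10 members were all named. For each tested member the text also names the genes with the highest correlation, and of the lists it names called, most abundant or defining genes, except results that are not reported here. The members and lists were chosen with earlier results of these data known.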

Additional observations from a re-analysis of the deposited data

Results flagged for a closer look

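*Cxcl2* in stimulated sgRNA cells had a library far from the others of its group. Replicate 5 stood at 0.320 CPM, from 4 counts, against 1.42, 1.53 and 1.62 CPM in replicates 3, 4 and 6. On the log2 scale the gap to the nearest of the others was 0.908 of the group's range, above Dixon's critical value of 0.829 for 4 libraries. It was the only 1 of 36 groups checked, and chance marks about 1 in 20 groups.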

How the results depend on the processing

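Counts of called members depended on the replicate block. For the guides over both treatments, 0 were called without the block, 3 with it, 1 by DESeq2, 1 with no low-count filter and 0 with the block and the ribosomal RNA share, a covariate chosen after seeing the data. In stimulated cells the block gave 1 against 0. For isoproterenol the counts were 0 without the block, 2 with it and 1 with the covariate, and *Ccl2* turned to −0.08 with the block. The block changed no other call among members in the comparisons reported. Leave-one-out fits with the block gave 1 to 4 members for the guides, 0 to 2 in stimulated cells and 0 to 3 for isoproterenol, and 0 in each without the block. Signs turned in leave-one-out fits without the block for the guides in *Cxcl12* (−0.96 to 0.31) and for isoproterenol in *Cxcl10* (−0.51 to 0.0090), *Ccl2* (−0.30 to 0.19) and *Ccl7* (−0.04 to 0.36). With the block they turned for isoproterenol in *Cxcl2* (−0.041 to 0.64), *Ccl2* (−0.38 to 0.11), *Ccl5* (−0.012 to 0.43) and *Ccl7* (−0.083 to 0.31). The cause was not tested. Low counts limit *Cxcl2*, *Cxcl5*, *Cxcl12*, *Ccl5* and *Cx3cl1*, which had libraries with 1 to 11 counts.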
